A study of Jatropha curcas with 15 samples.

Results

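The step from 3 h to 12 h after spraying with 6-benzyladenine (BA) was examined in inflorescence buds of *Jatropha curcas*, a woody oilseed plant of the spurge family. The members were chosen by their time label alone: 3 arrays of buds collected 12 h after BA were set against 3 arrays collected 3 h after BA, which makes 6 of the 15 arrays of the series. The buds of both times came from field-grown plants that were 1 year old and had been sprayed with 1 mM BA containing a wetting agent. The series as a whole followed the buds over 48 h to learn which genes respond to BA, a synthetic cytokinin that raises the number of female flowers in this plant. The 12 h and 3 h groups shared the plants' age, the site, the spray and the tissue, and differed in the hours since spraying. No buds sprayed without BA were collected at 12 h or 3 h, so time after BA and time of day cannot be told apart, and the clock times of collection are not given in the sources used here. The methods name the 3 arrays of a time point as biological replicates, and how many buds were pooled in each is not given in the sources used here.

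Cytokinins are adenine derivatives that are sensed by histidine kinases and relayed through phosphotransfer proteins to response regulators, and they are known for promoting cell division, meristem activity and chloroplast development. In inflorescence meristems, floral organs are specified by MADS-box transcription factors of the SEPALLATA, APETALA and AGAMOUS types. Many plant transcripts also follow the day: those of light harvesting, chlorophyll synthesis and water channels are known to oscillate in leaves of several species.

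RNA was labelled with 1 dye and hybridised to a custom array of 41651 probes, each 60 bases long. A level is given here as the log2 intensity of a probe relative to the 75th percentile of its array, so that 0 stands for a probe as bright as that percentile and a step of 1 for a doubling. Between 34192 and 34793 probes were well above background on the 12 h arrays and between 34271 and 34780 on the 3 h arrays. The SD of the difference between arrays was 0.425 to 0.482 for pairs within 12 h, 0.263 to 0.385 for pairs within 3 h, and 0.750 to 0.980 between the time points. The first and second replicates of 12 h shared a slide with the second and the third replicates of 3 h. The third replicate of 12 h was on a slide with the 24 h arrays, and the first replicate of 3 h was on a slide with the 0 h arrays that was scanned 6 days earlier. The tissue label was checked against 12 floral and meristem genes: 11 were tested, and all 11 were well above background on all 6 arrays. The other, PISTILLATA (PI), was not well above background on all 3 arrays of any time point and so was not tested. Since testing required such signal at 1 or more time points, the 11 were partly chosen by it and the check is weak. The 1 anther and pollen probe was not well above background on all 6 arrays.

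In all, 3694 of 34470 tested probes (10.7%), those well above background at 1 or more of the 5 time points, differed between 12 h and 3 h at an adjusted p of at most 0.05 (limma, Benjamini-Hochberg) and at least 2-fold, which is what called means throughout. Of the probes tested, 1312 (3.81%) were higher at 12 h and 2382 (6.91%) were lower. The excess of lower probes was also seen among the larger changes, with 296 higher and 778 lower at 4-fold or more, and 5 higher and 35 lower at 32-fold or more. The median log2 change was 1.38 for higher probes and -1.60 for lower probes, against 0.07 over all tested probes, with a median SE of 0.13. The adjusted p alone was passed by 39.9% of the probes. On 50.7% of the tested probes the 3 arrays of one time point all lay beyond those of the other.

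**Figure D1:**
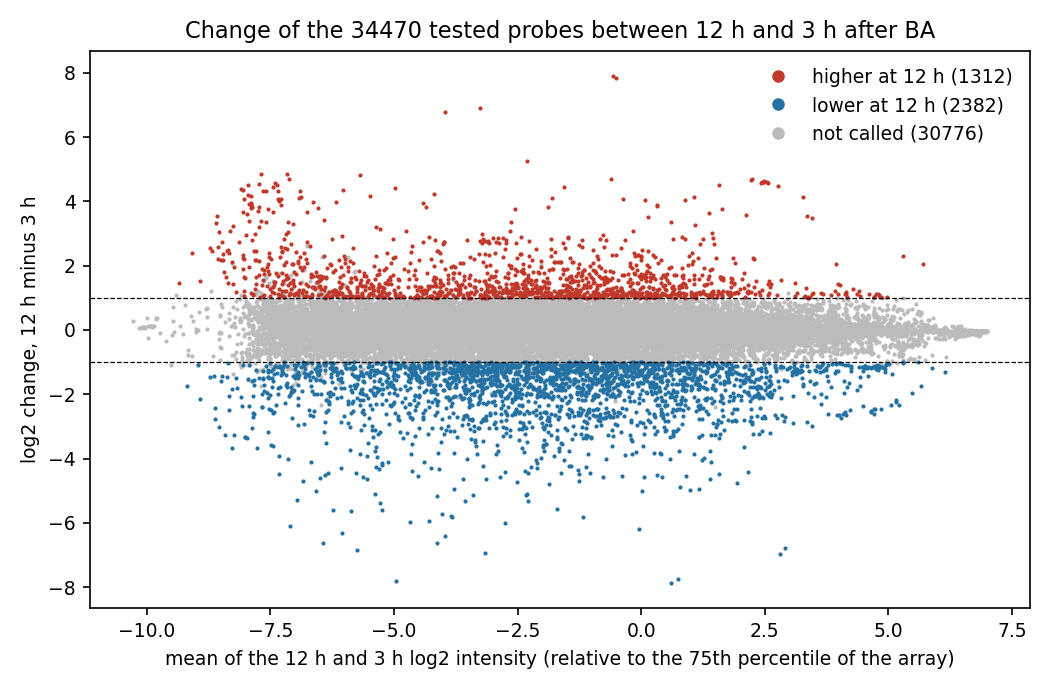
Each point is 1 of the 34470 tested probes, with its mean log2 intensity over the 6 arrays on the horizontal axis and its log2 change, 12 h minus 3 h, on the vertical axis. Dashed lines mark a 2-fold change; the 2382 lower probes (blue) outnumber the 1312 higher probes (red), and both spread over nearly the whole range of intensity.

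The 4 arrays that shared a slide are among the arrays that made the calls. On 96.8% of the called probes the arrays of the time points did not overlap. Agreement in direction within the slide was therefore largely fixed in advance and is no separate check. A fit of those 4 arrays alone called 2571 probes, 2333 of them among the 3694. Within that slide 3689 of the 3694 called probes moved the same way, 2954 of them (80.0%) by at least 2-fold, and the median change was 1.29 for higher and -1.40 for lower probes. At the other times the medians of the called probes lay nearer to 3 h than at 12 h. Relative to 3 h, the medians of the higher probes were 0.28, 1.38, 0.59 and 0.52 at 0, 12, 24 and 48 h. Those of the lower probes were -0.30, -1.60, -0.53 and -0.41 at the same times. All these values are set against the same 3 h arrays that chose the probes. The 12 h arrays chose them as well, so the values are a description.

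The probes with the largest changes of all have no name in the tables used here. CUST_23492 stood at 3.64, 3.07 and 3.45 on the 12 h arrays, against -4.46, -4.28 and -4.81 on the 3 h arrays, a rise of 7.90 ± 0.18 (SE) on the log2 scale or 239-fold. CUST_25894 rose by 7.84 ± 0.15. The largest fall was that of CUST_1581, which stood at -3.15, -4.31 and -2.53 at 12 h, against 4.65, 4.51 and 4.42 at 3 h, a log2 change of -7.86 ± 0.32. CUST_425 and CUST_30027 followed with -7.75 and -6.97. The arrays of the time points did not overlap for any of these 5 probes, and CUST_1581 had means of 3.12, 2.69 and 3.80 at 0, 24 and 48 h, so that the low level was measured at 12 h alone among the 5 times.

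Names were taken from 966 annotated probes, which are the first entries of a list that the study had called changed over these 15 arrays. The list is therefore not an independent sample of genes, and its counts are descriptions. Of its members 240 (24.8%, against 10.7% of all tested probes) were called between 12 h and 3 h. Of the 966 probes 86 (8.90%) were higher and 154 (15.9%) lower, against 3.81% and 6.91% of all tested probes. The median log2 change of the list was 0.14. Of the 966 probes 222 fell into 14 gene groups set by the words in their descriptions, and 69 of those 222 were called. The groups are parts of this list, so their shares are also to be read against its 8.90% higher and 15.9% lower.

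The named probe with the largest rise was CUST_32452, annotated as an auxin-repressed protein, one of a family of small plant proteins whose transcripts accumulate when auxin is low. Its level was 0.98, -1.04 and 0.67 on the 12 h arrays, against -6.87, -6.40 and -6.87 on the 3 h arrays. The change was 6.92 ± 0.47, or 121-fold (adjusted p = 2.61e-07, limma). The second replicate of 12 h was the lowest of its time point, and without it the change was 7.54. A second probe of the same annotation, CUST_22906, stood at 5.50, 4.72 and 4.80 at 12 h, against 0.46, 0.78 and 0.37 at 3 h, a change of 4.47 ± 0.30. Both sequences are shown because they share no run of more than 5 bases. They were read on the same arrays, and whether they read the same transcript was not tested.
CUST_32452: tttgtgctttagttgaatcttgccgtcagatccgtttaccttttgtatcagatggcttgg
CUST_22906: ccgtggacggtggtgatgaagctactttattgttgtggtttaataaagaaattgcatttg

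Other annotated probes that rose span several functions. CUST_24166, an electron transfer flavoprotein-ubiquinone oxidoreductase, which passes electrons from amino acid and lipid breakdown to the mitochondrial chain, stood at 2.71, 1.85 and 2.36 at 12 h, against -0.43, -0.62 and -0.55 at 3 h (change 2.84 ± 0.24, adjusted p = 1.95e-06, limma). CUST_3904, a dimethylaniline monooxygenase, changed by 3.19 ± 0.45 and was not called with normexp background correction (2.08, adjusted p = 0.0968, limma). Sucrose phosphate phosphatase, the enzyme of the last step of sucrose synthesis, changed by 1.98 ± 0.12. Among regulators, a zinc finger protein (CUST_9851) changed by 2.64, an AP2/ERF transcription factor (CUST_3282) by 2.47, a phosphoprotein phosphatase by 2.46 and the bZIP factor RF2a by 1.93. The means of the zinc finger and AP2/ERF probes at 24 h were near those at 12 h: CUST_9851 averaged -2.41, -2.57, 0.07, 0.15 and -0.63 over the 5 times in order, and CUST_3282 averaged -4.86, -5.37, -2.90, -2.88 and -3.51.

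CUST_650, a conserved hypothetical protein, stood at -2.80, -3.14 and -3.47 at 12 h, against 3.02, 3.19 and 2.98 at 3 h, a log2 change of -6.20 ± 0.16 or 73.6-fold lower. A silicon transporter, of the family of channels that carry silicic acid, stood at -6.94, -6.55 and -6.74 at 12 h, against -1.11, -0.78 and -0.94 at 3 h, which was 55.7-fold lower. An N-acetyltransferase was at -4.04, -5.04 and -4.43 at 12 h, against 1.08, 1.12 and 1.05 at 3 h, 48.0-fold lower. For each of these 3 probes the lowest 3 h array lay above the highest 12 h array by more than 5 on the log2 scale. S-adenosylmethionine decarboxylase, which supplies the aminopropyl groups for polyamines, fell by 2.84. Myo-inositol-1-phosphate synthase, the first step of inositol synthesis, fell by 2.75.

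**Figure D2:**
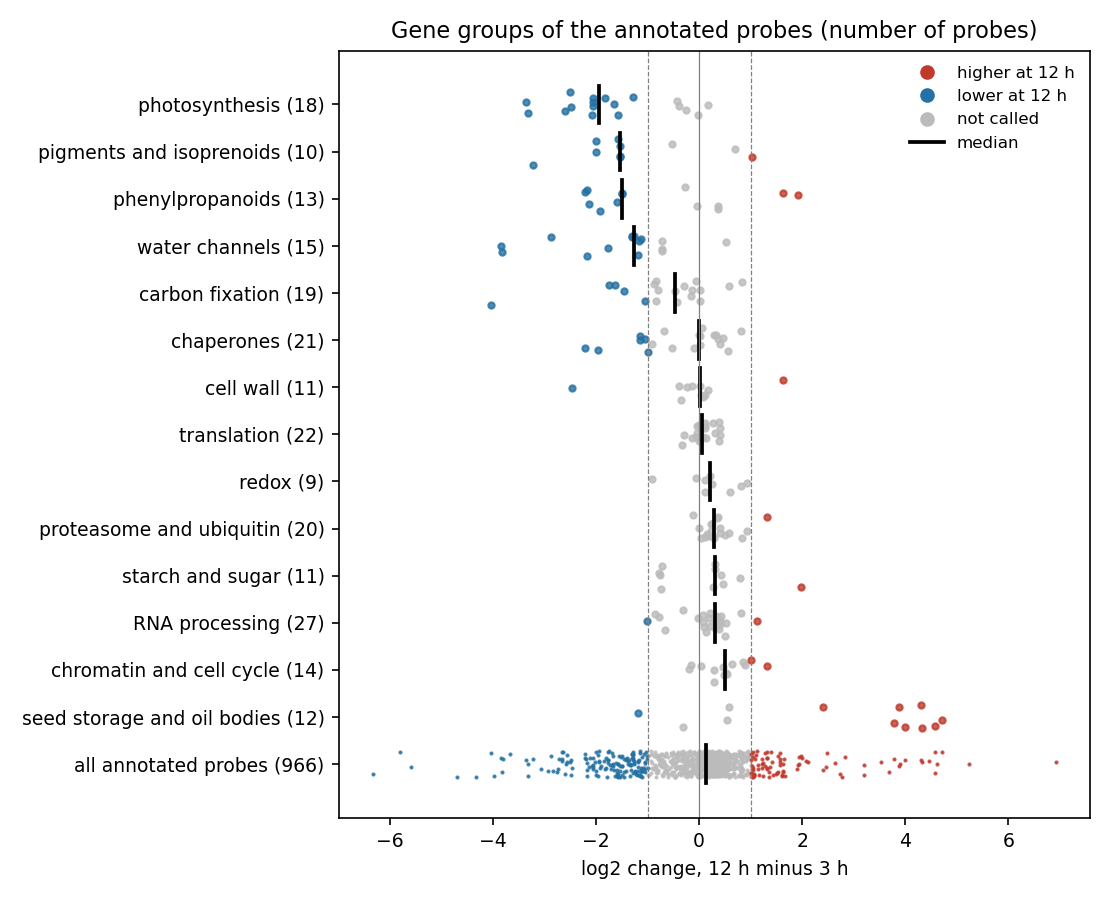
Each point is 1 annotated probe, placed by its log2 change, 12 h minus 3 h, in its gene group; black bars are group medians, not drawn for the oil body group, and dashed lines a 2-fold change. Photosynthesis, pigment, phenylpropanoid and water channel probes lie mostly to the left (medians -1.94, -1.54, -1.49 and -1.26), oil body probes to the right, where the size is not measured because those that rose were at background at 3 h, and translation probes around 0.

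Photosynthesis probes were lower at 12 h. Of 18 probes in that group 13 fell (72.2%, against 6.91% of all tested probes) and 0 rose, with a median of -1.94. All 8 probes annotated as chlorophyll a/b binding proteins, which hold the pigments of the light-harvesting antennae, fell, with log2 changes of -3.36 to -1.82. The one with the largest fall, CUST_12680, stood at 0.02, -0.22 and -0.11 at 12 h, against 2.93, 3.51 and 3.32 at 3 h, a change of -3.36 ± 0.22 or 10.3-fold lower (adjusted p = 2.13e-07, limma). Antenna proteins of photosystem I gave the same direction: Lhca3 (CUST_3456) stood at -1.99, -2.66 and -2.31 at 12 h, against -0.14, 0.49 and 0.19 at 3 h, and CUST_11579 at -2.01, -2.70 and -2.46 at 12 h, against -0.09, 0.48 and 0.17 at 3 h. Falls were also measured for the photosystem II 22 kDa protein, known for dissipating excess light (-2.07), for ferredoxin-2, an electron carrier (-1.65), for photosystem I subunit XI (-1.58) and for photosystem II subunit W (-1.28).

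The 5 photosynthesis probes that were not called were cytochrome b6 (-0.43), the cytochrome b6-f iron-sulfur subunit (-0.39), the alpha subunit of the chloroplast ATP synthase (-0.26), ndhD (-0.02) and ferredoxin-3 (0.18). Cytochrome b6, ndhD and the ATP synthase alpha subunit are proteins that plants encode in the chloroplast genome. The summed linear level of the 13 probes of the green tissue marker list was 46.8, 30.4 and 37.7 on the 12 h arrays, against 138, 174 and 166 on the 3 h arrays, 11 of the 13 being called lower and all 13 well above background on all 6 arrays. In whole buds, fewer green cells and less of these transcripts per cell cannot be told apart.

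Several of these probes hold stretches of the same sequence. The first pair below are the photosystem I probes and the second a pair of chlorophyll a/b binding probes; capitals mark the run of bases that both probes of a pair hold.
CUST_3456: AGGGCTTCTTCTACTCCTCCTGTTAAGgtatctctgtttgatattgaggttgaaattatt
CUST_11579: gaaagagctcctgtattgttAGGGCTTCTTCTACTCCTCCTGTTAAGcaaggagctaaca
CUST_969: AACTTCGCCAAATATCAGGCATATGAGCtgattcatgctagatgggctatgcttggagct
CUST_9100: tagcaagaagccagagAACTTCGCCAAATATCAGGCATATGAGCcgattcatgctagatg
The shared run is 27 bases in the first pair and 28 in the second. Past the shared run the photosystem I probes differ, and whether they read the same transcript was not tested. Among the 28 pairs that the 8 chlorophyll a/b binding probes can form, 3 share a run of 20 bases or more, and CUST_969 and CUST_8078 are the same 60 bases. Those identical probes fell by 2.05 and 2.07, so the probes of this family are not 8 separate measurements.

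Enzymes of chlorophyll and carotenoid synthesis fell with the antenna proteins. GUN5, the H subunit of magnesium chelatase, which inserts magnesium on the way to chlorophyll and which the hormone list files under abscisic acid, stood at -2.89, -3.27 and -3.05 at 12 h, against 1.47, 1.69 and 1.39 at 3 h. Its change of -4.59 ± 0.18 was 24.0-fold (adjusted p = 7.75e-09, limma), and the arrays of the time points lay far apart. The GUN5 means at 0, 24 and 48 h were 1.35, 0.70 and 1.14. Glutamyl-tRNA reductase, the entry step of tetrapyrrole synthesis, fell by 1.57.

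Of the 10 probes in the group of pigments and isoprenoids 7 fell (70%, against 6.91% of all tested probes) and 1 rose, with a median of -1.54. The exception was a probe of 1-deoxyxylulose-5-phosphate synthase, which starts the plastid pathway to isoprenoids. CUST_20165 stood at -2.99, -3.36 and -2.90 at 12 h, against -3.88, -4.17 and -4.30 at 3 h, a rise of 1.03. The other probes of that enzyme, CUST_15654 and CUST_8307, both changed by -1.54, and CLA1, the name of the enzyme in *Arabidopsis*, by -1.64. The 3 probes of the group share no run of more than 6 bases. Carotenoid cleavage enzymes fell as well: NCED3 (CUST_20053), which makes the first committed precursor of abscisic acid, was at -7.29, -6.09 and -7.42 at 12 h, against -3.19, -4.05 and -3.86 at 3 h, a change of -3.23 ± 0.31, with only 2 of its 3 arrays at 12 h well above background. A second 9-cis-epoxycarotenoid dioxygenase fell by 2.00, CCD1 by 2.01 and zeaxanthin epoxidase (ABA1) by 1.59.

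In carbon fixation 5 of 19 probes were lower (26.3%, against 15.9% of the annotated and 6.91% of all tested probes) and 0 higher (median -0.47). An NADP-dependent glyceraldehyde-3-phosphate dehydrogenase, an enzyme of triose phosphate metabolism, had the largest fall: it was at -3.58, -3.71 and -3.45 at 12 h, against 0.37, 0.51 and 0.49 at 3 h (change -4.04 ± 0.19, adjusted p = 2.27e-08, limma). It is in the group by the words of its description, and whether it takes part in carbon fixation was not tested. The 2 probes of phosphoribulose kinase, which regenerates the acceptor of carbon dioxide, fell by 1.75 and 1.64. The triose phosphate/phosphate translocator, which exports fixed carbon from the plastid, fell by 1.46. The RuBisCO subunits themselves were not called, with changes of -0.83 for the large and -0.30 for the small subunit.

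**Figure D3:**
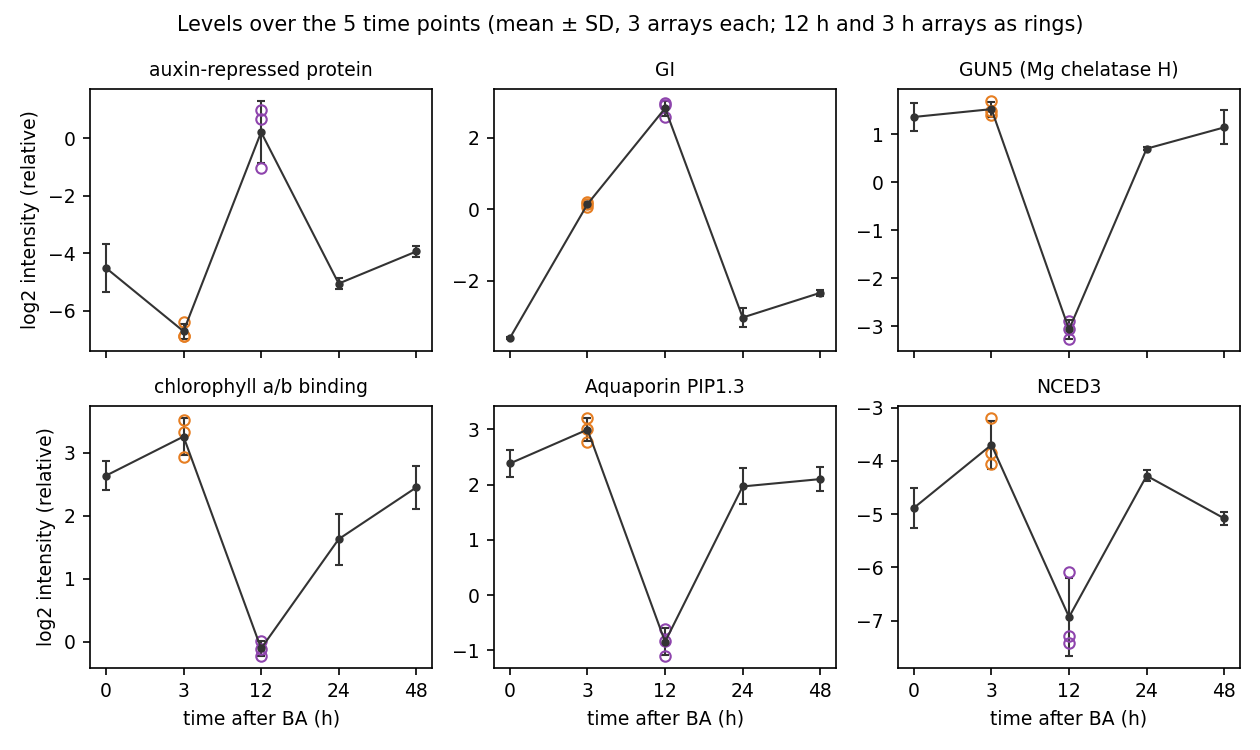
Mean log2 intensity ± SD (3 arrays a time point) of 6 probes over the 5 times after BA, with the single arrays of 12 h (purple) and 3 h (orange) as rings; the times are evenly spaced and not drawn to scale. The auxin-repressed protein and GI peak at 12 h, while GUN5, the chlorophyll a/b binding protein, PIP1.3 and NCED3 have their lowest mean at 12 h.

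Of the 15 water channel probes 11 were lower at 12 h (73.3%, against 6.91% of all tested probes) and 0 were higher, with a median of -1.26. PIP1.3, a plasma membrane aquaporin, stood at -0.61, -1.10 and -0.83 at 12 h, against 3.20, 2.78 and 3.01 at 3 h, a change of -3.84 ± 0.19 or 14.4-fold lower (adjusted p = 2.97e-08, limma). PIP2.2 stood at -1.78, -1.14 and -1.68 at 12 h, against 2.89, 2.04 and 1.94 at 3 h, a change of -3.82 ± 0.24. Both means had moved back at the later times, PIP1.3 averaging 1.97 and 2.10 at 24 and 48 h after 2.38 at 0 h. These probes are shown because they lead the group, and no pair among the 8 plasma membrane aquaporin probes shares a run of more than 14 bases.
CUST_20019 (PIP1.3): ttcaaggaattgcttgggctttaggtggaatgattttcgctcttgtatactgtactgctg
CUST_20176 (PIP2.2): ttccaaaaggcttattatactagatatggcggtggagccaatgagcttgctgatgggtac
Of the tonoplast intrinsic proteins, the channels of the vacuole membrane, 6 of 7 probes fell, with log2 changes of -1.31 to -1.12, and CUST_7640 stood apart with 0.51 (not called). CUST_9745 and CUST_203 in this family are the same 60 bases and fell by 1.31 and 1.30.

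The phenylpropanoid group, whose pathway leads from phenylalanine to lignin and flavonoids, held changes in both directions. Of 13 probes 7 fell and 2 rose (53.8% and 15.4%, against 6.91% and 3.81% of all tested probes; median -1.49). Phenylalanine ammonia-lyase, the entry enzyme, stood at -0.10, -0.38 and -0.27 at 12 h, against 1.87, 1.48 and 1.66 at 3 h, a change of -1.92 ± 0.11. Cinnamoyl-CoA reductase, which commits the pathway to lignin monomers, was split: CUST_4941, CUST_3004, CUST_20091 and CUST_20100 fell by 2.22, 2.18, 2.13 and 1.60. In contrast CUST_781 stood at 1.08, 1.07 and 0.80 at 12 h, against -0.73, -0.60 and -0.62 at 3 h, and CUST_8105 at 2.29, 2.22 and 2.17 at 12 h, against 0.26, 0.36 and 0.31 at 3 h. In these 2 rises, of 1.64 ± 0.15 and 1.91 ± 0.10, the arrays of the time points did not overlap. The 8 probes of the family share no run of more than 8 bases. Chalcone synthase, the first enzyme of flavonoids, fell by 1.77 (CHS of the hormone list), and Myb12, known in *Arabidopsis* as an activator of flavonol genes, was at -4.77, -4.58 and -5.21 at 12 h, against -1.86, -2.52 and -2.14 at 3 h (change -2.68 ± 0.21).

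Oil body proteins moved the other way. Of the 12 probes of the group of seed storage and oil bodies 8 rose (66.7%, against 8.90% of the annotated and 3.81% of all tested probes) and 1 fell. All 8 that rose are annotated as oleosin 2, a protein of the oil droplet surface in seeds. A further oleosin 2 probe, CUST_21228, came from the PCR list of the study. None of these 9 was well above background on any 3 h array, so only a bound of the change can be given: the bright mean over the lowest signal called above background. CUST_21228 stood at -3.33, -6.19 and -4.72 at 12 h and at -9.02, -9.77 and -10.00 at 3 h, at least 9.25-fold higher (adjusted p = 1.67e-05, limma). The bounds of the other named oleosin 2 probes were at least 9.97-fold (CUST_20748), 9.92-fold (CUST_20585), 9.14-fold (CUST_26853), 7.11-fold (CUST_25146), 5.71-fold (CUST_20525) and 5.54-fold (CUST_23009). For each of these probes the first replicate of 12 h was the highest array and the second the lowest.

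The oleosin calls depended on the background. With normexp background correction none of the 7 named oleosin 2 probes passed the adjusted p (0.15 to 0.27). CUST_21228 averaged -3.74 and -5.07 at 24 and 48 h, against -9.26 at 0 h, so the later times were also above 0 h and 3 h. The other seed markers were not alike: oleosin 1 changed by 0.58 (not called), while legumin B, a storage protein, fell by 1.20. The summed linear level of the 12 seed probes was 0.747, 0.191 and 0.368 at 12 h, against 0.305, 0.169 and 0.199 at 3 h, and 3 of the 12 were well above background on all 6 arrays. The sums of the time points overlapped. The probes below, in capitals where they are the same, hold 58 of 60 bases in common and are 1 measurement in effect; 6 of the 36 pairs among the 8 oleosin 2 probes of the group and the oleosin 1 probe share 20 bases or more, and CUST_21228 was not compared.
CUST_20525: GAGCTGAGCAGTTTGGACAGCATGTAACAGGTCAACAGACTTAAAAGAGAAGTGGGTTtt
CUST_23009: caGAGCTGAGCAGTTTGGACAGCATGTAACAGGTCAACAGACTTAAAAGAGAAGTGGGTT

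Of the 21 chaperone probes 6 fell (28.6%, against 15.9% of the annotated and 6.91% of all tested probes) and 0 rose, with a median of 0.006. Among those that fell were HSC70-1, a cytosolic chaperone (1.19, 1.47 and 0.79 at 12 h, against 3.31, 2.92 and 3.11 at 3 h, change -1.96), and a heat shock protein (CUST_22665, -2.22). CUST_22665 averaged -1.86 at 0 h, 0.89 at 3 h and -1.33 at 12 h. In the group of chromatin and cell cycle 2 of 14 rose (14.3%, against 8.90% of the annotated and 3.81% of all tested probes) and 0 fell. Cyclin A, which drives the S and G2 phases, was at 0.20, 0.40 and 0.15 at 12 h, against -1.19, -1.04 and -0.96 at 3 h (change 1.31 ± 0.13). Histone 2 rose by 1.00 ± 0.12, and by under 2-fold without the first replicate of 3 h or the second or the third of 12 h (0.93, 0.94 and 0.96). In the cell wall group 18.2% of 11 probes were called, against 24.8% of the annotated and 10.7% of all tested probes. There was 1 rise, of a xyloglucan endotransglucosylase, which cuts and rejoins wall polymers (1.62), and 1 fall, of a polygalacturonase, which cleaves pectin (-2.47). RNA processing had 1 rise and 1 fall of 27 (7.41% called), and the proteasome and ubiquitin group 1 rise of 20 (5%; RHA2A, 1.31). Starch and sugar had 1 rise of 11 (9.09%), that of sucrose phosphate phosphatase. These shares lie below the 10.7% of all tested probes. No probe was called in translation (0 of 22, changes of -0.33 to 0.40) or redox (0 of 9), although 7 and 4 of these passed the adjusted p with changes under 2-fold.

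Flowering genes were read from a list of 32 probes that the study compiled for its analysis of these arrays, of which 29 were tested. CUC2, PI and TM6 were not well above background on all 3 arrays of any time point. In this list 3 probes rose and 6 fell, 9 of 29 (31.0%) against 10.7% of all tested probes, and the median was 0.03. The 9 became 3 once slide entered the fit as a fixed block. They became 4 with scan day in its place, without the first replicate of 3 h, or without the third replicate of 12 h. Of the 12 h and 3 h arrays only the first replicate of 3 h was scanned on the earlier day. The scan day block therefore amounts to leaving that array out, and the slide block takes the change from the shared slide alone. The largest change was that of GIGANTEA (GI), a clock-associated protein that acts in the day-length pathway to flowering. GI stood at 2.96, 2.58 and 2.92 at 12 h, against 0.07, 0.14 and 0.21 at 3 h, a rise of 2.68 ± 0.13 or 6.42-fold (adjusted p = 2.17e-08, limma). Over the 5 times in order GI averaged -3.61, 0.14, 2.82, -3.03 and -2.34. COP1, a ubiquitin ligase that represses light responses, was at -0.93, -1.08 and -0.52 at 12 h, against 0.35, 0.28 and 0.30 at 3 h, a fall of 1.15 ± 0.12.

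Floral organ identity genes made up the other 5 falls. SEP1, SEP2 and SEP3, annotated as SEPALLATA genes that act with the other MADS-box factors in all floral whorls, fell by 1.38 ± 0.27, 1.00 ± 0.20 and 1.30 ± 0.40 (adjusted p = 0.00154, 0.00199 and 0.0221, limma). AP3, annotated as the petal and stamen gene APETALA 3, changed by -1.71 ± 0.55 (0.025), and STK, the ovule identity gene SEEDSTICK, by -1.63 ± 0.47 (0.0154). The list pairs its SEP1 probe with the *Arabidopsis* locus of STRESS ENHANCED PROTEIN 1 and its AP3 probe with that of UNUSUAL FLORAL ORGANS, so these names are those of the list and are unsettled. The sequences of SEP3 and AP3 are shown so that they can be placed.
CUST_10402 (SEP3): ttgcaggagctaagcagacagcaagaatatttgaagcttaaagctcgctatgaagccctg
CUST_10541 (AP3): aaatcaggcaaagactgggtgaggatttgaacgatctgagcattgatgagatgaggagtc

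These 5 falls were uneven over the arrays. SEP3 was at -1.63, -1.46 and -3.45 at 12 h, against -0.71, -0.73 and -1.21 at 3 h. AP3 was at -2.11, -2.57 and -4.61 at 12 h, against -0.95, -1.22 and -2.002 at 3 h. STK was at -4.09, -4.05 and -6.06 at 12 h, against -2.70, -3.06 and -3.56 at 3 h. In all 5 the groups did not overlap, and the third replicate of 12 h, the array on a slide without 3 h arrays, was the lowest of all 6. SEP1 was at -1.94, -1.86 and -3.005 at 12 h, against -0.77, -0.85 and -1.06 at 3 h, and SEP2 at 0.79, 0.51 and -0.26 at 12 h, against 1.44, 1.37 and 1.24 at 3 h.

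Without the third replicate of 12 h the changes were -1.01 for SEP1, -0.70 for SEP2, -0.66 for SEP3, -0.95 for AP3 and -0.96 for STK, of which SEP1 alone was still called. Within the shared slide the differences were -0.94, -0.65, -0.57, -0.73 and -0.76. The direction of all 5 was the same within the slide, as arrays that do not overlap require, and the size was under 2-fold. Without the first replicate of 3 h, SEP2 (-0.96), SEP3, AP3 and STK were not called either (adjusted p = 0.0667, 0.0863 and 0.0591 for the last 3, limma). Without the second replicate of 3 h, SEP2 (-0.99), SEP3 (adjusted p = 0.0634) and AP3 (0.0678) were not. GI and COP1 were called under each of these omissions. The main fit takes its spread from all 15 arrays. In a fit of the 6 arrays of 12 h and 3 h alone, SEP3, AP3 and STK missed the adjusted p, and 6 flowering probes were called. AP1, a gene of floral meristem and sepal identity, was at 1.40, 1.50 and 0.36 at 12 h, against 1.48, 1.73 and 1.45 at 3 h, where the third replicate of 12 h alone lay apart, and was not called (-0.47, adjusted p = 0.133).

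**Figure D4:**
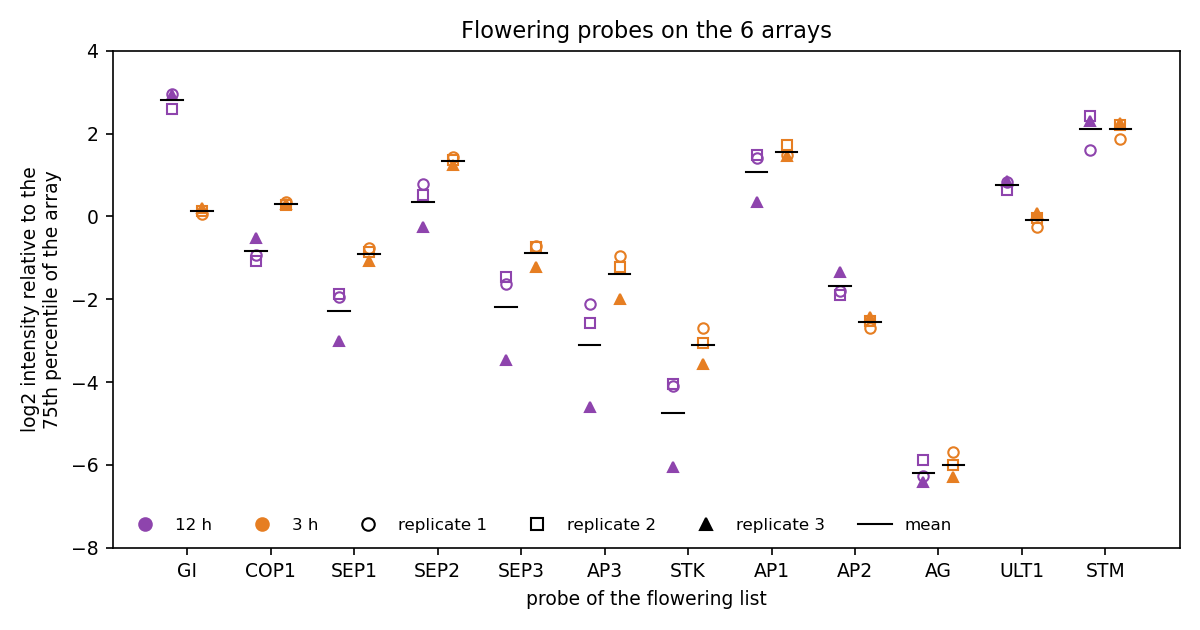
Log2 intensity of 12 probes of the flowering list on the 12 h (purple, left) and 3 h (orange, right) arrays, with symbols for the replicates and bars for the means. The third replicate of 12 h (triangle) lies lowest for SEP1, SEP2, SEP3, AP3, STK and AP1, and the 12 h arrays of GI all lie above its 3 h arrays.

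The other rises of the flowering list were those of dim probes. NGA2, known in *Arabidopsis* for shaping leaf margins and styles, was at -6.69, -6.43 and -5.90 at 12 h, against -7.17, -7.95 and -7.99 at 3 h (change 1.37 ± 0.32). Of its 3 h arrays 1 was well above background, and NGA2 was not called with normexp (0.50, adjusted p = 0.735, limma). Its mean at 0 h was -6.53, near that at 12 h. CUC1, a factor of organ boundaries, changed by 1.82 ± 0.68 with an adjusted p of 0.0493 (limma), which was passed no longer when any 1 array other than the second of 12 h was left out. AP2 (0.86, adjusted p = 0.000446) and ULT1 (0.85, adjusted p = 4.99e-05), a regulator of meristem size, passed the adjusted p with changes under 2-fold. The tasselseed-like TS2 changed by -0.93 (adjusted p = 0.0311, limma) and was not called, being under 2-fold. It was at 0.30, -0.02 and -1.09 at 12 h, against 1.15, 0.49 and 0.33 at 3 h. Leaving out single arrays gave -1.21 (without the first replicate of 12 h) to -0.52 (without the third), with a call in some omissions and not in others. Within the shared slide the difference was -0.27. Changes of AGAMOUS (-0.19), CRY1 (-0.43), PHYA (-0.16), SVP (0.21) and SHOOT MERISTEMLESS, which keeps meristem cells undifferentiated (0.00 ± 0.20), were not called.

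Hormone genes were read from 115 probes that the study listed by hormone, 113 of them tested. Of these 1 rose and 15 fell (14.2% called, against 10.7% of all tested probes), and the median was 0.10. Genes of biosynthesis accounted for 6 falls among 29 tested (20.7% called, against 10.7% of all tested probes). Signal transduction held 1 rise and 2 falls among 45 (6.67%), and receptors 1 fall among 11 (9.09%), that of GUN5. Among the 23 tested probes of abscisic acid 6 fell (26.1% called): those of GUN5, CLA1, ABA1 and NCED3 and the 2 probes of PSBR, all proteins of the plastid. PSBR is a subunit of photosystem II: CUST_31870 fell by 1.28 ± 0.17, while CUST_37715 changed by -1.88 ± 0.58 with overlapping arrays and was not called without the second replicate of 3 h (-1.16) or that of 12 h (-1.45). The receptor PYL4 was at -1.08, -4.96 and -3.09 at 12 h, against -3.98, -4.81 and -4.99 at 3 h, and its mean difference of 1.55 did not pass (adjusted p = 0.124, limma).

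**Figure D5:**
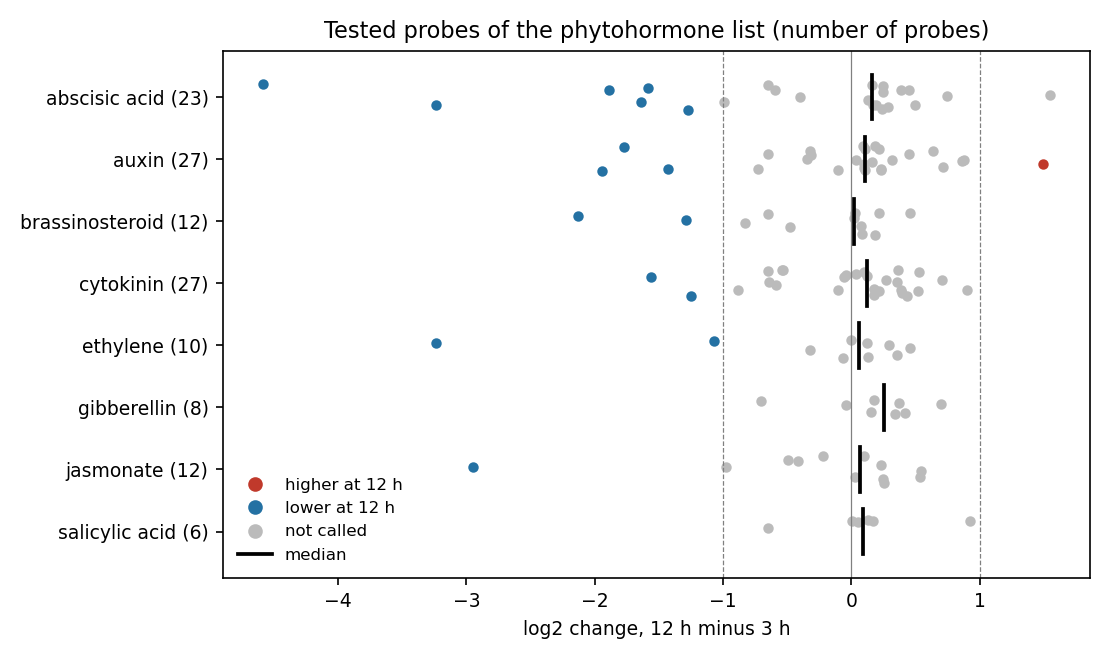
Each point is 1 tested probe of the phytohormone list, placed by its log2 change, 12 h minus 3 h; probes listed under several hormones appear in each, black bars are medians and dashed lines a 2-fold change. The medians lie between 0.02 and 0.26, and called probes are lower ones (blue) except for IAA19 under auxin (red).

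Among the genes of cytokinin, the hormone that was sprayed, 0 rose and 2 fell of 27 tested (7.41% called, against 10.7% of all tested probes). Both that fell lie outside cytokinin signalling itself, ACC1, the cytosolic acetyl-CoA carboxylase (1.59, 1.23 and 1.09 at 12 h, against 3.05, 2.64 and 2.90 at 3 h, change -1.56), and ANAC101, a factor of xylem vessel formation (-1.25). The receptor AHK3 changed by 0.18 (adjusted p = 0.18, limma). Of the relay proteins, the phosphotransfer protein AHP2 changed by -0.53, and the response regulators ARR3 by -0.64 (adjusted p = 0.157), ARR8 by -0.59 (0.0444) and ARR1 by 0.40. The type-A regulators ARR3 and ARR8 are known as early cytokinin response genes. The synthesis enzyme IPT5 changed by 0.90 (adjusted p = 0.0154) and KNAT3 by 0.71 (1.58e-05), below 2-fold.

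Auxin held the one rise of the hormone list. IAA19, a repressor of auxin response genes, stood at -0.21, -0.55 and -0.23 at 12 h, against -1.80, -1.71 and -1.97 at 3 h, a change of 1.50 ± 0.18 (adjusted p = 4.14e-05, limma). SUR1, whose loss raises auxin in *Arabidopsis*, fell by 1.94, at -5.77, -5.31 and -4.59 at 12 h, against -2.74, -3.57 and -3.54 at 3 h. IAMT1, which methylates indole acetic acid, changed by -1.43, and by -0.75 without the third replicate of 12 h, when it was not called; without the first replicate of 3 h its adjusted p was 0.0519.

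For jasmonate 1 of 12 probes fell (8.33% called, against 10.7% of all tested probes): JMT, which makes methyl jasmonate, was at -4.75, -4.76 and -5.82 at 12 h, against -1.78, -2.33 and -2.38 at 3 h, a change of -2.95 ± 0.29. The synthesis enzymes LOX2 (-0.98, adjusted p = 0.221, limma) and AOS (-0.41) were not called. For brassinosteroids 2 of 12 fell (16.7% called). Of the 2 probes listed for DOGT1, which attaches glucose to brassinosteroids, CUST_34329 stood at 1.34, 0.60 and 1.89 at 12 h, against 1.34, 1.41 and 0.99 at 3 h, and its change of 0.03 was not called (adjusted p = 0.934, limma). The other, CUST_14505, was at -5.42, -7.92 and -7.10 at 12 h, against -4.49, -4.48 and -5.08 at 3 h, a change of -2.13, or -2.82 without the first replicate of 12 h; it was not called with normexp or on the shared slide alone. CPD, a synthesis enzyme, changed by -1.28, and by -0.91 without the second replicate of 12 h. Its means were -2.97 at 0 h, -1.40 at 3 h and -2.68 at 12 h.

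Ethylene had 2 falls of 10 (20% called, against 10.7% of all tested probes). They were NCED3, which is listed there too, and MYB51 (-1.07, and -0.78 without the third replicate of 12 h). Gibberellin (8 tested) and salicylic acid (6 tested) had 0 calls in the list. A gibberellin 20-oxidase probe outside it (CUST_5901), of the enzyme that makes late gibberellin precursors, was at -6.51, -7.30 and -6.80 at 12 h, against -3.27, -3.79 and -4.03 at 3 h, a change of -3.17 ± 0.58, and a probe of the gibberellin receptor GID1 outside it (CUST_19936) changed by -1.68 (adjusted p = 3.35e-05, limma). Both were chosen after their values were seen. The listed probe of the 20-oxidase GA20OX1 (CUST_31050) changed by -0.70 and was not called. The 3 annotated probes of GID1 were not called either, with changes of -0.03 to 0.23.

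The study took up 12 probes, picked from its clusters of changed transcripts, for a second measurement by PCR. Of these 11 were tested, and 3 rose and 4 fell (63.6% called, against 10.7% of all tested probes). Besides the auxin-repressed protein, oleosin 2, CUST_650, CUST_11579 and Myb12, these were a zinc finger protein and a cation efflux protein, each at background at one time point. The zinc finger probe CUST_32158 was at -5.25, -5.86 and -5.71 at 12 h, and at -9.92, -9.20 and -8.75 at 3 h, where it was not well above background, at least 5.08-fold higher; with normexp it was not called (1.40, adjusted p = 0.284, limma). The cation efflux protein, of a family that moves metal ions out of the cytosol, was at -8.20, -9.05 and -9.17 at 12 h, not well above background, and at -4.58, -4.03 and -3.98 at 3 h, at least 13.4-fold lower at 12 h. Over the whole array 101 tested probes were at background on all 3 h arrays and well above it on all 12 h arrays, of which 85 were called, and 118 the other way round, of which 86 were called.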

How the data were processed

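Total RNA of the buds was labelled with Cy3 and hybridised to a custom 1-colour array whose probes came from *J. curcas* and castor bean sequences. The deposited scanner files hold intensity values made by the authors with Agilent Feature Extraction 10.7.3.1, background-subtracted and not normalised between arrays. The authors' deposited table holds log2 values, which lie within 0.1 of quantile-normalised log2 intensities for 99.98% of entries and were used as an alternative. Spots marked as outliers were left out, spots of a probe averaged, and the 75th percentile of each array subtracted from log2 processed signal.

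Tested were probes that 1 or more of the 5 time points showed well above background on every array (34470 of 41651; 19 of the others had every spot of a time point marked). limma 3.58.1 (R 4.3.3) was fitted to all 15 arrays with the time points as groups, and the contrast 12 h minus 3 h was tested with eBayes and Benjamini-Hochberg adjustment over all tested probes; 16752 probes had an unadjusted p under 0.05. Called probes passed an adjusted p of 0.05 and a 2-fold change. An exact permutation test of 3 against 3 arrays cannot go below 0.1. For a probe at background on all arrays of a time point, the bound sets the mean of the bright time point against, per dim array, the higher of the lowest signal among probes well above background and the probe's own. In simulated data with 200 probes changed by 2 on the log2 scale among 34305, the main fit recovered 192 (96.0%). A fit of the 4 arrays of the shared slide recovered 124 (62%). The simulated noise was normal, with no slide effect and no background floor. The median called changes were smaller, at 1.38 and -1.60, so these shares do not carry over to them. The arrays' number limits the precision.

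Names came from tables of the study, which pair probes with products. A name needed an e-value of at most 1e-05, a limit set after the tables were seen (112 of 966 entries were over it or had none). No reference sequence was used to place the probes. Named are the 12 largest rises and falls among annotated probes with arrays that do not overlap and lie above background, called probes of the flowering, hormone and PCR lists, up to 4 called probes a gene group, the 3 largest rises and falls of all, and the 5 largest bounds. Members and lists were chosen with earlier results of these data known. Alternatives covered scaling, background correction, the filter, slide, scan day, replicate number, samples in the fit, moderation and leaving out each array. The study's own fold changes and p-values were not used.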

Additional observations from a re-analysis of the deposited data

How the results depend on the processing

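The total of 3694 called probes lay between 2564 (normexp background correction) and 4087 (without the second replicate of 12 h) over all alternatives, and no named probe reversed under any of them. Leaving out single arrays gave totals of 3256 to 4087, with 1156 to 1482 higher, 2100 to 2605 lower, 4 to 10 flowering probes, 16 to 20 hormone probes, 13 to 13 photosynthesis probes lower and 62 to 72 called probes in the gene groups. Higher probes numbered 778 with normexp, against 1312, and the cause was not tested; they made up 30.3% of the calls with normexp, 41.7% with no scaling and 35.5% in the main setting. The 9 called flowering probes became 3 with slide as a fixed block, 4 with the 4 arrays of the shared slide, 4 with scan day as a fixed block, 4 without the first replicate of 3 h and 4 without the third replicate of 12 h; the fits on fewer arrays have fewer samples. Photosynthesis kept 13 lower probes in each alternative. Of the 89 named probes, 16 missed the adjusted p with normexp, 14 on the shared slide alone and at most 5 under any other alternative. Those lost with normexp were 7 oleosin 2 probes, CUC1, NGA2, SEP3, DOGT1, IAMT1, the dimmer PSBR probe, the monooxygenase CUST_3904, the zinc finger CUST_32158 and a splicing factor. The fall of that splicing factor, just past 2-fold, was under 2-fold without the first replicate of 12 h or the first or the third of 3 h, a rise of an RNA helicase (1.12) without the third of 12 h (0.98), and falls of heat shock proteins CUST_14495 and CUST_32894 (both -1.14) without the first of 3 h (both -0.98).

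Without scaling the median of all tested probes was shifted by 0.15 between 12 h and 3 h, against 0.07 in the main setting. With the replicate number as a block 3702 probes were called, 3679 of them among the 3694. That block changed no other named call than CUC1. Deviations of same-numbered arrays from their means had r of 0.14, -0.25 and 0.12, and those of differently numbered arrays -0.25 to 0.22. No pairing by number was seen, but deviations from means of 3 arrays, mixed with slide, cannot settle whether the samples were paired. Dim probes, the oleosin 2 probes among them, are limited by signal over background.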

Other observations

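Among descriptions carried by several annotated probes, all 5 probes named only as calcium ion binding protein fell at 12 h relative to 3 h. The median log2 change was -1.60. Of the annotated probes 15.9% fell, and of all tested probes 6.91%. A further probe that the study's text gives that name, CUST_18202, changed by 0.36 and was not called. Of 6 pentatricopeptide repeat proteins, a family that binds organelle RNA, 3 rose and 0 fell, with a median of 0.91. That is 50% higher, against 8.90% of the annotated and 3.81% of all tested probes. All 5 probes of rrp4, a subunit of the RNA exosome, passed the adjusted p with changes of 0.37 to 0.43, below 2-fold. The adjusted p alone was passed by 642 of the 966 annotated probes and by 39.9% of all tested probes. Shared descriptions were picked after the values were seen, and how far these probes read the same transcript was not tested.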
